A study of Homo sapiens with 2 samples.

Results

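Apart from 4 HNRNP pseudogenes, the genes compared here encode the protein core of the pre-mRNA splicing machinery and the hnRNP proteins that coat nascent transcripts. They were taken by name from the annotation of the array platform, as every symbol that begins with HNRNP, SRSF, SF3A, SF3B, SNRP, U2AF or PRPF, or with the older spellings HNRP and SFRS, leaving out HNRNPC and HNRNPA2B1. This gave 73 genes with 121 probes, among 20046 named genes and 47323 probes. They comprised 26 HNRNP genes with 53 probes, 12 SRSF genes with 16, 9 SF3 genes with 12, 12 SNRP genes with 21, 3 U2AF genes with 6 and 11 PRPF genes with 13. The rule itself uses names alone and no measured value.

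Introns are removed by the spliceosome, which is assembled on each pre-mRNA from small nuclear ribonucleoprotein particles (snRNPs). The U1 snRNP binds the 5′ splice site, U2AF marks the 3′ splice site, and the U2 snRNP with its SF3A and SF3B subcomplexes binds the branch point before the U4/U6.U5 tri-snRNP joins with its PRPF proteins. SR proteins, encoded by the SRSF genes, bind exonic enhancers and recruit these particles, whereas hnRNP proteins package the transcript and often compete with SR proteins for splice site choice.

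Both samples were K562, a human chronic myeloid leukemia line driven by the BCR/ABL fusion kinase, which nilotinib, a tyrosine kinase inhibitor (TKI), blocks. The nilotinibR cells had been passaged in nilotinib at 0.1 µM, then at 0.3 and 1 µM, over 3 months, until they grew routinely at 1 µM. The parental cells were kept alongside without drug (0 µM). Total RNA of each was hybridised to 1 HumanHT-12v4 BeadChip array, so that each condition had 1 array and no difference had a replicate check. No test was run, and every fold, count and median describes these 2 arrays. Acquired resistance, the drug in the medium and any drift between the cultures cannot be told apart, nor, in bulk RNA, can fewer expressing cells and less RNA per cell. The sources used here do not say whether the resistant culture was a pool or grew from few cells.

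Deposited intensities ran from 92.8 to 21126 on the parental array and from 88.2 to 22044 on the nilotinibR array. A probe was called dim where its intensity did not exceed the level that 5% of background probes would pass, 120 for parental and 119 for nilotinibR. Probes above that level on at least 1 array numbered 25540 and covered 13164 named genes. The erythroid globins that K562 cells make were bright on both arrays, with log2 levels of 14.08 and 14.17 for HBG1 and of 14.19 and 14.10 for HBE1 in parental and nilotinibR cells. BCR stood at 6.47 and 6.57, close to the dim level. ABL1 stood at 8.41 and 8.40, and TFRC, the transferrin receptor, at 12.78 and 13.59. Among markers of other cells, the epithelial gene EPCAM was detected at 9.29 and 9.17, and CD3E was dim on both arrays. MS4A1, CD14, COL1A1 and PECAM1 lay between 6.05 and 6.58, like BCR close to the dim level. ALB was somewhat higher at 7.02 and 7.32, with intensities of 176 and 205.

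Of the 73 genes, 69 were measured, with 105 probes. HNRNPCL1, PRPF40B, SF3A1 and SRSF12 were dim on both arrays and have no value. In nilotinibR cells 15 of the 69 genes, or 21.7%, were at least 1.5-fold lower than in parental cells, and 0 were at least 1.5-fold higher. Over all 13164 measured genes, 8.23% were at least 1.5-fold lower and 7.51% at least 1.5-fold higher. Below the parental level lay 54 of the 69 genes (78.3%), against 50.3% of all genes, and over the alternatives with 69 genes this number lay between 51 and 59. The median log2 difference, nilotinibR minus parental, was -0.25 for these genes and -0.002 for all genes. The quartiles over all genes lay at -0.23 and 0.22.

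Most of these differences were small. At least 1.2-fold lower were 32 of the 69 genes and at least 1.2-fold higher 4, while 33 lay within 1.2-fold. The corresponding shares of all genes were 21.9% lower and 21.8% higher. HNRNPA3 and HNRNPAB were the 2 genes at least 2-fold lower, a size that 2.78% of all genes reached. Among the genes with a probe at a deposited intensity of 500 or more, where the background weighs less, 15 of 46 were at least 1.5-fold lower and 1, HNRNPDL, was higher. Of all 3610 genes passing the same filter, 17.7% were lower and 17.1% higher. That filter was chosen after the values were seen.

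**Figure D1:**
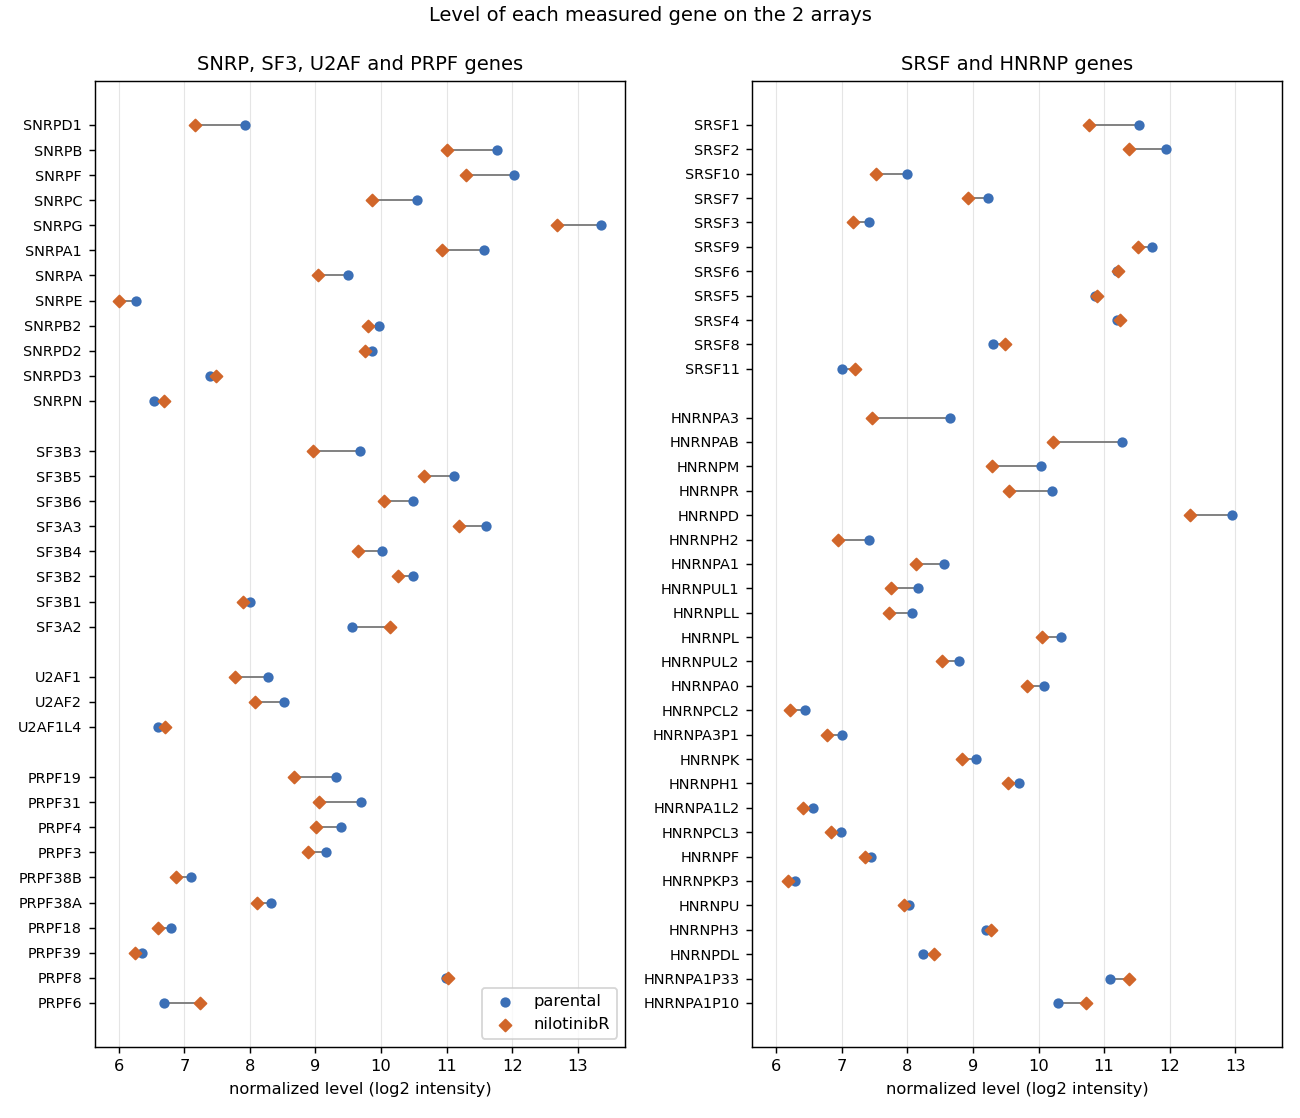
Normalized level of each of the 69 measured genes (log2 intensity, horizontal axis) on the parental array (blue circles) and the nilotinibR array (orange diamonds), with a line joining the values of a gene and families set apart by gaps. In 54 of the 69 genes the nilotinibR value lies to the left of the parental value. Levels of different genes come from different probes and are not to be ranked.

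The lower values were spread over the families unevenly. The 15 genes at least 1.5-fold lower comprised 6 of 12 measured SNRP genes, 5 of 25 HNRNP and 2 of 10 PRPF. They also included 1 of 11 SRSF genes (9.09%) and 1 of 8 SF3 genes (12.5%), shares near the 8.23% of all genes. Of the 3 U2AF genes, 0 reached that size. The median log2 difference was -0.55 for SNRP, -0.44 for U2AF, -0.39 for SF3, -0.24 for HNRNP, -0.22 for PRPF and -0.21 for SRSF. All 6 medians stayed below 0 under every processing alternative run, each on the same 2 arrays. Of the 11 SRSF genes, however, 6 lay below the parental level and 5 above (54.5% below, against 50.3% of all genes). That split was 4 and 4 with the filter at 500, and 9 and 2 with median scaling. The difference between families was not tested.

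**Figure D2:**
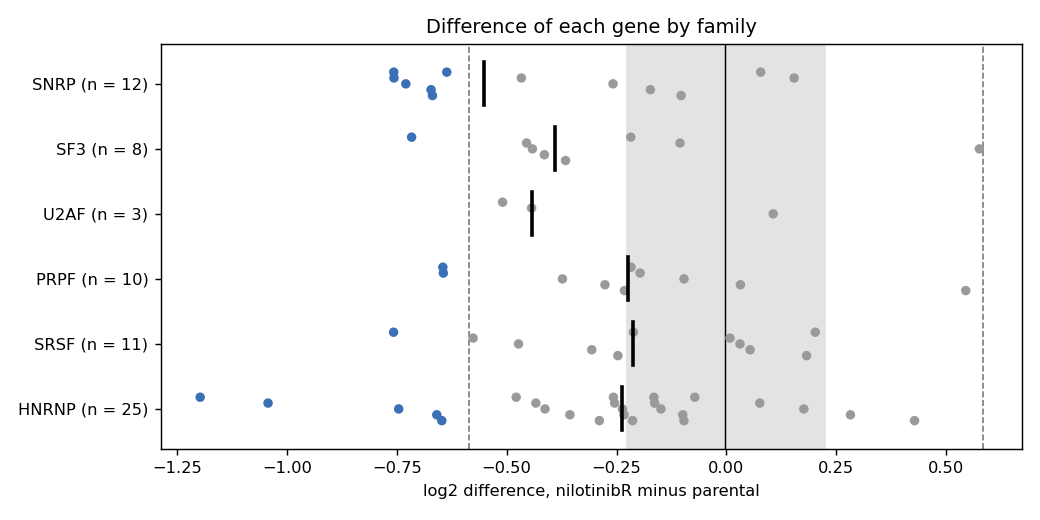
Log2 difference (nilotinibR minus parental, horizontal axis) of each measured gene by family, with the family median as a black bar, genes at least 1.5-fold lower in blue, the 1.5-fold limits dashed and the range between the quartiles of all 13164 genes shaded. The 6 blue SNRP points and the median of -0.55 show the downward shift of that family, and no point lies beyond the upper limit.

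The SNRP genes encode snRNP proteins, most of them the Sm proteins that form a ring around each snRNA. Of the 12 genes, 10 were below the parental level. In the Sm ring, 4 of 8 genes were at least 1.5-fold lower, against 8.23% of all genes. SNRPB, which encodes the Sm B/B′ proteins, read 4685 in parental and 2694 in nilotinibR cells with 1 probe and 2789 and 1539 with the other. The 2 probes thus gave nearly the same difference, -0.74 and -0.78, and a mean level 1.69-fold lower. SNRPF read 3519 and 2123 with 1 probe and 5121 and 2884 with the other, and was 1.66-fold lower. SNRPD1, with 1 probe, read 289 and 190 and was 1.69-fold lower. SNRPG read 10228 and 6860, 1.59-fold lower. All 4 encode subunits that every major spliceosomal snRNP with an Sm ring carries.

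The other ring genes did not share that size of difference. SNRPD3 lay within 1.2-fold of the parental level, at 0.08. SNRPD2 had a mean of -0.10 from probes of opposite sign, a bright one that read 10813 and 9454 (-0.27, 1.21-fold lower) and one near background that read 125 and 128 (0.07). SNRPE was above the dim level on the parental array only, with 124 against 109, and was at least 1.045-fold lower. SNRPN, an imprinted relative of SNRPB that is made chiefly in brain, was the highest of the family at 0.15 but close to background, with 139 and 150. Outside the ring, SNRPC, the U1 protein that stabilizes pairing with the 5′ splice site, read 1051 and 609 with 1 probe and 2359 and 1527 with the other, and was 1.59-fold lower. SNRPA, the U1 protein that binds a stem loop of U1 snRNA, differed by -0.47. SNRPA1, a U2-specific protein that binds with SNRPB2, read 3184 and 1949, and at 1.55-fold lower was the closest of the genes inside the threshold, whereas SNRPB2 itself differed by -0.17.

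SF3A and SF3B hold the U2 snRNP at the branch point. By the mean of their probes, all 6 SF3B genes were below the parental level, with a median of -0.40 and a range from -0.72 to -0.11. SF3B3, a scaffold subunit of SF3B, read 883 in parental and 536 in nilotinibR cells and was 1.64-fold lower. SF3B5, a small subunit, read 2329 and 1614 (-0.45). SF3B1, which clamps the branch point and is often mutated in myeloid neoplasms, was the least different of the 6 at -0.11, and its probes disagreed. They read 274 and 229 (-0.31), 124 and 117 (-0.10, dim on the nilotinibR array) and 1021 and 1052 (0.10), so that SF3B1 was above the parental level by its brightest probe. The SF3A subunits went both ways. SF3A3 read 3243 and 2297 (-0.41), whereas SF3A2 read 811 and 1144 and was 1.49-fold higher, the closest of the 69 genes to the threshold on the upper side, without reaching it.

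Of the U2AF genes, U2AF1, the subunit that reads the AG dinucleotide of the 3′ splice site, read 785 and 515 with 1 probe and 178 and 145 with the other, a mean difference of -0.51. U2AF2, its partner on the polypyrimidine tract, read 1350 and 892 and, with a second probe, 152 and 131, a mean difference of -0.44. Both subunits of the heterodimer were thus lower on the nilotinibR array, each by less than 1.5-fold in the mean of its probes. The brighter probe alone was 1.52-fold lower for U2AF1 and 1.48-fold lower for U2AF2. U2AF1L4, a paralogue of U2AF1, differed by 0.11.

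Among the PRPF genes, PRPF19, the ubiquitin ligase of the Prp19 complex, read 693 and 447 and was 1.56-fold lower. PRPF31, a tri-snRNP assembly factor mutated in inherited retinal degeneration, read 892 and 566 and was also 1.56-fold lower. PRPF8, the scaffold of the catalytic center, had nearly equal readings of 2112 and 2074. Its difference was 0.03 with quantile normalization, -0.05 with median scaling and -0.03 in the deposited values, so its sign depended on the normalization. PRPF6, which bridges the U5 and U4/U6 particles, read 150 and 197 and was 1.46-fold higher. PRPF4 and PRPF3, which sit together on the U4/U6 particle, differed by -0.37 and -0.28. The remaining 4, PRPF38B, PRPF38A, PRPF18 and PRPF39, were lower by at most 1.2-fold.

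SRSF1 was the one SR protein gene at least 1.5-fold lower. It encodes a general and alternative splicing factor that can act as an oncoprotein, and read 3135 in parental and 1758 in nilotinibR cells, 1.69-fold lower. SRSF2, which is recurrently mutated in myeloid neoplasms, read 4012 and 2599 and at 1.49-fold lower was the closest gene outside the threshold on that side. SRSF9 read 3509 and 2874 (-0.21). SRSF4, SRSF5 and SRSF6, which encode 3 closely related SR proteins, differed by 0.05, 0.03 and 0.01 on the log2 scale, with intensities of 2466 and 2400 for SRSF4, of 2471 and 2331 for SRSF6, and of 1957 and 1940 for 1 probe of SRSF5. These deposited readings were slightly lower on the nilotinibR array, and the signs of all 3 genes turned with median scaling, 75th percentile scaling and the deposited values, between -0.13 and -0.03, so no direction is given for them. SRSF10 and SRSF7 differed by -0.47 and -0.31, SRSF8 by 0.18. SRSF11 was the highest of the family at 0.20, with 174 and 194. The family therefore held both sizeable and near-zero differences among its bright probes.

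The 25 measured HNRNP genes included the 2 lowest values of the whole set. HNRNPA3, an A/B-type hnRNP, read 457 in parental and 222 in nilotinibR cells with its 1 probe, a log2 difference of -1.20 or 2.29-fold lower. HNRNPAB, a related protein that binds both RNA and DNA, had 3 probes that read 5748 and 2815, 1335 and 672, and 2169 and 971. Each of the 3 showed the nilotinibR array at a log2 difference between -1.14 and -0.99, and their mean was 2.06-fold lower. HNRNPR, an hnRNP that interacts with the SMN protein, was 1.58-fold lower, and its 3 probes lay between -0.69 and -0.64.

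HNRNPM, a regulator of alternative exons, was 1.68-fold lower over 4 probes. The bright probes read 3813 and 2227, 2747 and 1484, and 1604 and 708. The remaining probe, dim on the nilotinibR array, read 131 and 115. HNRNPD, the AU-rich element binding protein AUF1, which controls mRNA decay, read 6992 and 4201 with 1 probe and 8500 and 6216 with the other, and was 1.57-fold lower. The 13 measured HNRNP genes not described singly lay between -0.48 (HNRNPH2) and 0.08 (HNRNPH3), including HNRNPKP3, which was above the dim level on the parental array only and at least 1.06-fold lower. Of the 4 pseudogenes measured, HNRNPA1P10 was the highest HNRNP entry at 1.35-fold higher, with 1329 and 1689, and HNRNPA1P33 read 2285 and 2601 (0.28).

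Several of these entries share sequence with close relatives, so that a probe may read more than 1 gene. This concerns HNRNPA1 and its pseudogenes HNRNPA1P10 and HNRNPA1P33, HNRNPA1L2, HNRNPA3 and HNRNPA3P1, HNRNPK and HNRNPKP3, the HNRNPCL genes, SNRPB and SNRPN, and SNRPG. Probe sequences were not compared here, and values of such pairs are uncertain to that extent.

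Several probes were kept for 27 of the genes, 63 probes in all, and 42 genes rested on 1 probe. Among these 42 were HNRNPA3, SRSF1, SNRPD1, SNRPG, SNRPA1, SF3B3, PRPF19 and PRPF31, each at least 1.5-fold lower. The pooled SD between probes of the same gene was 0.39 on the log2 scale. The differences of PRPF31 and SNRPA1, -0.64 each, lay closer to the 1.5-fold threshold than that SD. For 19 of the 27 genes all probes lay under 0.5 apart, and in 4, HNRNPAB, HNRNPR, SNRPB and SNRPF, every probe was at least 1.5-fold lower. In another 8 genes some but not all probes were (HNRNPA1, HNRNPD, HNRNPH2, HNRNPM, HNRNPUL1, SNRPC, SRSF3 and U2AF1). This spread is between probes of the same 2 RNA samples and does not replace a replicate.

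Probes had opposite signs in 8 genes, and in 6 of these lay at least 0.5 apart. The other two, SF3B1 and SNRPD2, are described with their families. HNRNPA1, a major A/B-type hnRNP, read 539 and 306 with 1 probe and 346 on both arrays with the other. HNRNPUL1, an hnRNP U-like protein, had 1 probe that read 445 and 153, 3.70-fold lower, and 3 probes between 0.02 and 0.15 (1464 and 1424, 185 and 193, and 135 and 145). All 4 are annotated to the same transcript. HNRNPDL, a relative of HNRNPD, read 235 and 205 with a probe annotated to its mRNA and 540 and 764 with a probe annotated to a noncoding transcript. For these genes the mean hides probes that disagree. The unchanged HNRNPA1 probe and the brightest HNRNPUL1 probe, both at 0.02, had slightly lower deposited readings on the nilotinibR array. No direction is given for those probes.

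In HNRNPK, which binds poly(C) stretches, 3 probes lay between -0.53 and -0.22, and the other, a faint probe with 123 and 137, at 0.25. HNRNPU, a nuclear scaffold protein, had probes at -0.48 (320 and 241) and 0.33 (295 and 356). SRSF3, the smallest SR protein, read 482 and 319 with 1 probe (-0.64) and 115 and 121 with the other (0.14), the latter above the dim level on the nilotinibR array only.

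**Figure D3:**
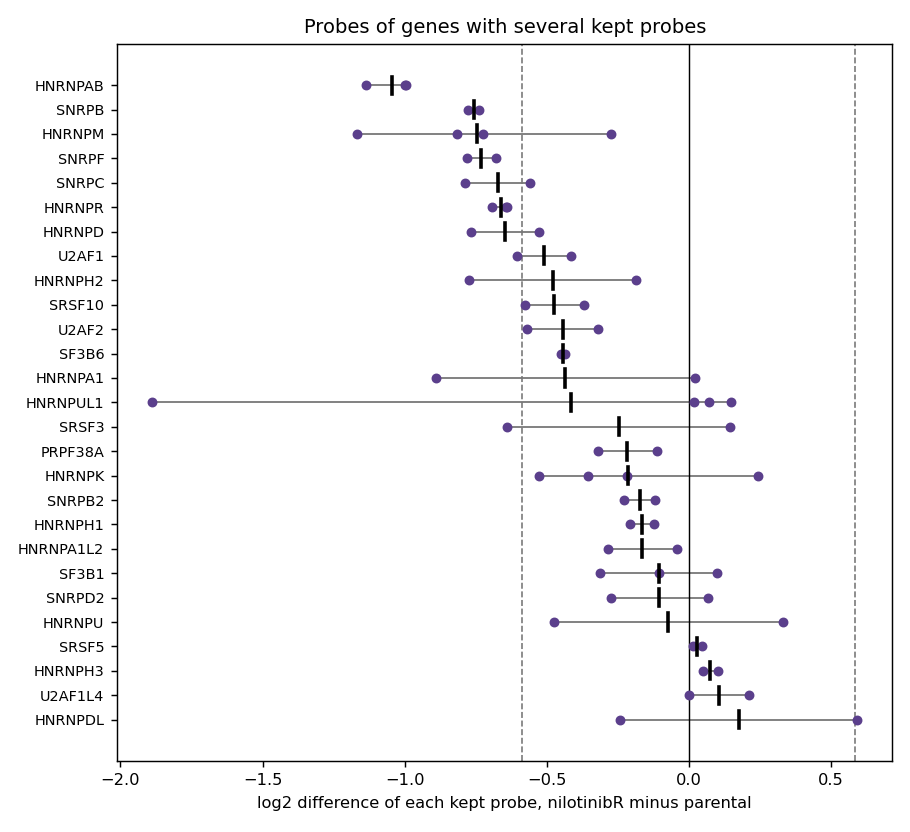
Log2 difference (nilotinibR minus parental, horizontal axis) of every kept probe of the 27 genes with several kept probes, with each gene's mean as a black bar and the 1.5-fold limits dashed. HNRNPAB, SNRPB, SNRPF and HNRNPR have all probes left of the lower limit, and the probes of HNRNPUL1 run from -1.89 to 0.15.

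Promoters were examined because many of these genes were lower together. RefSeq (GRCh38.p14) gave the 250 bases before each annotated transcript start for 58 of the 69 measured genes, in 81 windows, since some genes have several starts. On both strands, these were searched for the ETS core CCGGAAG, the E-box CACGTG that MYC binds, CCAAT, the GC box GGGCGG and TATAAA. The ETS core occurred at 20 of the 58 genes (34.5%), against 17.5% of the 10423 measured genes with a window and 10.2% of all 27305 genes in the table. Among the genes at least 1.5-fold lower it was found at 5 of 13 (38.5%), and among the others at 15 of 45 (33.3%). These ETS counts include windows that overlap their own gene, among them those of SNRPG, SNRPE and HNRNPF. Such matches need not lie upstream of the gene. The E-box occurred at 7 of 58 (12.1%), against 10.7% of measured genes and 7.73% of all. Of the 7, 3 (HNRNPA3, HNRNPD and HNRNPM) were among the 13 lower genes. The other 4 did not pass 1.5-fold and went both ways: HNRNPH2 (-0.48), SF3B1 (-0.11), HNRNPH3 (0.08) and HNRNPDL (0.18).

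The other motifs were CCAAT at 28 of 58 genes (48.3%, against 41.7% of measured and 37.0% of all genes), the GC box at 34 (58.6%, against 69.7% and 46.2%) and TATAAA at 6 (10.3%, against 9.01% and 13.0%). Between the lower and the other genes, the GC box was found at 5 of 13 (38.5%) and 29 of 45 (64.4%), TATAAA at 3 of 13 (23.1%) and 3 of 45 (6.67%), CCAAT at 7 of 13 (53.8%) and 21 of 45 (46.7%), and the E-box at 3 of 13 (23.1%) and 4 of 45 (8.89%). These splits were not tested, and rest on few genes. A match describes the letters of a window and was not tied to binding of any factor here. Of the 5 windows printed, SNRPB, SNRPC and SRSF5 are shown because the same ETS core lies before genes that differed in response. SNRPB and SNRPC were 1.69-fold and 1.59-fold lower, against 0.03 on the log2 scale for SRSF5. HNRNPA3 and HNRNPM, both among the lower genes, are shown because they carry the E-box, and no other E-box window is printed. Each runs 5′ to 3′ on the strand of its gene and ends next to the start, with ETS cores and E-boxes in capitals, an ETS core on the opposite strand reading CTTCCGG. In SNRPC the 2 orientations overlap.
SNRPB (chr20:2470790-2471039, minus strand): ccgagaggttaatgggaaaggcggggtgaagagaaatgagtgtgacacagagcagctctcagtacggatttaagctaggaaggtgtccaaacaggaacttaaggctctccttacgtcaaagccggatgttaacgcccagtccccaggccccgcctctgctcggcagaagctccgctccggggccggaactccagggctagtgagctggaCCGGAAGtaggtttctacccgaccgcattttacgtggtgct
SNRPC (chr6:34757255-34757504, plus strand): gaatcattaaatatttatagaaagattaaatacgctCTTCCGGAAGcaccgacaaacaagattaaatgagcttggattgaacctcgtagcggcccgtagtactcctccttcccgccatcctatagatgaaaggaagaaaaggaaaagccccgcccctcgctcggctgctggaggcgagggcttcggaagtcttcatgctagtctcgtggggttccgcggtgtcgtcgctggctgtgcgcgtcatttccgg
SRSF5 (chr14:69766892-69767141, plus strand): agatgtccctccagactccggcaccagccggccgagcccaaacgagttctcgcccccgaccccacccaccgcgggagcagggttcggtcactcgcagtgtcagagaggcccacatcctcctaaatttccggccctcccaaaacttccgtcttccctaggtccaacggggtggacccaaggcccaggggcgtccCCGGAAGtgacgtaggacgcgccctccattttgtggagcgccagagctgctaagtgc
HNRNPA3 (chr2:177212544-177212793, plus strand): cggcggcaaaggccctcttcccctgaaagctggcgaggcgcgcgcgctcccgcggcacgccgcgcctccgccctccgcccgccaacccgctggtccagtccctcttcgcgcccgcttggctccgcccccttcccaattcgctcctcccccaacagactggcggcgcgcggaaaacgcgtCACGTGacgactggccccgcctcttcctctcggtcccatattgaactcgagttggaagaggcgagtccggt
HNRNPM (chr19:8444725-8444974, plus strand): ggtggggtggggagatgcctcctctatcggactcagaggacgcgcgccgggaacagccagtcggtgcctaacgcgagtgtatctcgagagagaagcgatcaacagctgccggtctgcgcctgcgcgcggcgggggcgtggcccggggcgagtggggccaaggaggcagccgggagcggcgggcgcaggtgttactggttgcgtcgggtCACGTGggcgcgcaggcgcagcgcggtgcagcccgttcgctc

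Genes of the same pathway without these prefixes were compared next, from a list of 107, of which 100 were measured. At least 1.5-fold lower were 13 (13.0%) and at least 1.5-fold higher 5 (5.0%), against 8.23% and 7.51% of all genes, with a median difference of -0.14. The list and its groups were drawn up with earlier results of these arrays known.

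The factors that assemble snRNPs had 5 of 11 genes at least 1.5-fold lower, 10 of 11 below the parental level and a median of -0.41. PRMT5, the methyltransferase that modifies the Sm proteins SNRPB, SNRPD1 and SNRPD3 before ring assembly, read 1104 and 416 with 1 probe and 1193 and 415 with the other, 2.90-fold lower. WDR77, its partner in the methylosome, read 405 and 215 and was 2.10-fold lower. GEMIN6, a subunit of the SMN complex that loads the ring, read 485 and 255 and was 2.06-fold lower. STRAP and GEMIN4, also of the SMN complex, differed by -0.75 and -0.69. SMN1 differed by -0.01, near background and with probes that may also read SMN2. At least 1.5-fold lower on the same array were 5 of the 11 assembly genes and 4 of the 8 Sm ring genes. The share of all genes was 8.23%, or 17.7% among those with a probe at 500 or more. A link between the groups was not tested, and the assembly list was drawn up with earlier results known.

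The remaining groups showed smaller or mixed differences. Partners of the tri-snRNP and the branch site had 3 of 13 genes at least 1.5-fold lower (EFTUD2, DDX23 and DDX46), 1 higher (RBM17, 1.58-fold, with 530 and 780) and a median of -0.29. These counts were 23.1% and 7.69%, against 8.23% and 7.51% of all genes. In the group of Prp19 complex and catalytic step genes, 0 of 16 passed 1.5-fold in either direction and 11 were above the parental level, with a median of 0.09, although PRPF19 itself was lower. The U6 LSM ring and the SNRNP and minor spliceosome genes also had 0 of 8 and 0 of 10 past 1.5-fold, with medians of -0.10 and 0.03. The LSM ring is the counterpart of the Sm ring on U6 snRNA. In the exon junction complex, 1 of 8 (12.5%, against 8.23% of all genes), the helicase EIF4A3 (-1.04), was at least 1.5-fold lower.

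Kinases of SR proteins, which control their location and activity, made up 2 of the 5 higher genes. In their group with the import receptors, 2 of 7 were higher (28.6%, against 7.51% of all genes) and 1 lower (14.3%, against 8.23%). CLK4 read 148 and 212 and was 1.64-fold higher. CLK1 differed by 0.60, and its 2 probes read 485 and 833, and 163 and 191. SRPK1, the cytoplasmic SR protein kinase, differed by -0.36. Of the import receptors on the list, TNPO1 differed by -0.84 and TNPO3 by only -0.20. Auxiliary regulators had 3 of 27 genes at least 1.5-fold lower (11.1%) and 2 higher (7.41%). These shares lay near the 8.23% and 7.51% of all genes. SYNCRIP, also called hnRNP Q, a close relative of HNRNPR, read 549 and 219 and was 2.87-fold lower. RBM5, an RNA binding protein that regulates exons of apoptosis genes, read 824 and 1439 and was 1.86-fold higher, and TARDBP (TDP-43), an hnRNP without the prefix, read 300 and 431 and was 1.54-fold higher.

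**Figure D4:**
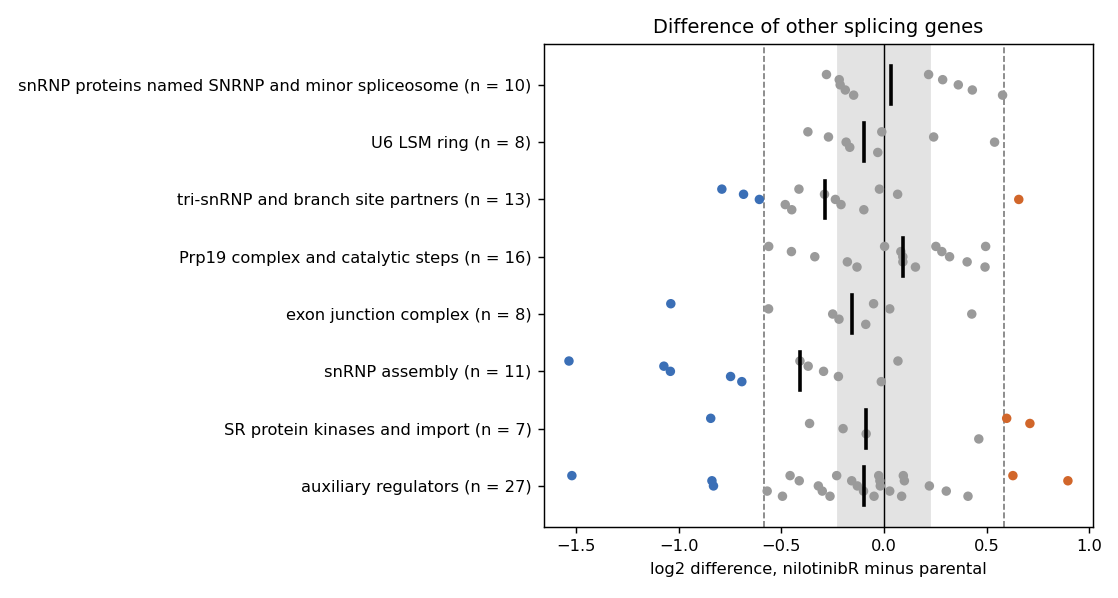
Log2 difference (nilotinibR minus parental, horizontal axis) of 100 other splicing genes by group, with group medians as black bars, genes at least 1.5-fold lower in blue and at least 1.5-fold higher in orange, the 1.5-fold limits dashed and the range between the quartiles of all genes shaded. The snRNP assembly group holds 5 blue points and a median of -0.41, and the Prp19 group has no point beyond either limit.

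The values rest on 1 normalization of 2 arrays, so the medians were recomputed under other settings. In the alternatives that measured the same 69 genes their median lay between -0.34 and -0.23. It was -0.23 over 73 genes without a filter on dim probes, -0.26 over the 67 above the dim level on both arrays and -0.37 over the 46 that passed the filter at 500. The median of all genes lay between -0.03 and 0.002. The number at least 1.5-fold lower lay between 15 and 17, while the genes measured and the background changed with the setting. That number was 20.5% of 73 genes against 4.97% of all genes without a filter, 24.6% of 69 against 12.6% with an offset of 16, and 32.6% of 46 against 17.7% with the filter at 500. Symbols as the platform gives them changed no value. Of the 15 genes described above, all 15 were among the lower genes in 6 of the other 9 alternatives, 14 with the deposited values on the log2 scale, 13 with the brightest probe of each gene and 13 with the filter at 500. With the deposited values SNRPG lay just under the threshold (-0.58), with the brightest probe SNRPC (-0.56) and HNRNPD (-0.53) did, and the probes of HNRNPA3 and SNRPD1 were under 500. SRSF2 passed the threshold with median scaling (-0.66), 75th percentile scaling (-0.68) and the deposited values (-0.63).

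**Figure D5:**
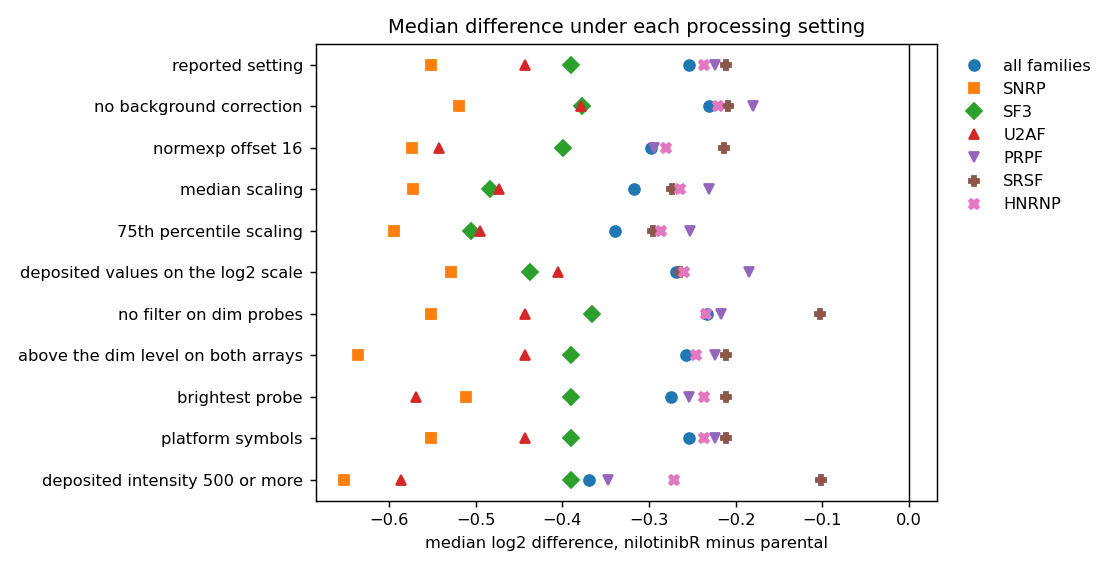
Median log2 difference (nilotinibR minus parental, horizontal axis) of all the genes together and of each family under the reported setting and each of 10 alternatives (rows). The row for platform symbols repeats the reported setting, and the number of genes differs between rows. All medians lie left of 0, from -0.65 for SNRP with the filter at 500 to -0.10 for SRSF without a filter on dim probes or with the filter at 500.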

How the data were processed

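Total RNA of parental and nilotinibR K562 cells was measured on 1 HumanHT-12v4 BeadChip array each. Per the methods, the authors read the scans with GenomeStudio and normalized with robust multichip average in RMA Express 1.0. The deposited intensities are linear with background left in, but the sources used here do not say which steps they include. A second table was not used, since its 4 columns (signals and detection p) carry names that match no sample label.

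With limma 3.58.1 in R 4.3.3 and Python 3.11.15 (pandas 2.3.3, numpy 2.4.6, matplotlib 3.10.9), background was removed by normexp (offset 50), arrays were quantile normalized, and log2 was taken. The offset shrinks differences of dim probes, and quantile normalization removes any shift shared by all genes. A probe was kept when above the dim level, the background mode plus the spread that 5% of background exceeds, on at least 1 array. Platform annotation named 30113 probes with 1 symbol and 8 with several, left 17202 without, and 30074 of the named probes matched RefSeq, which updated the symbols. Kept probes of a gene were averaged. A gene above the dim level on 1 array only has a bound, from its level on the brighter array against the lowest level above the dim level on the other.

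The 1.5-fold threshold is that of the methods, whose 2-sample test needs replicates. Precision is limited by the number of arrays. The genes and lists were chosen with earlier results of these data known. The named genes were all at least 1.5-fold different, the 2 brightest, the highest and the lowest of each family, those with probes of opposite sign at least 0.5 apart, those closest to the threshold, and up to 4 other splicing genes in each direction. Others named in passing were chosen after their values were seen. The scripts were tested on simulated data. Alternatives changed the background correction, normalization, filter, probe averaging, gene names and fold threshold.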

Additional observations from a re-analysis of the deposited data

How the results depend on the processing

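No paired analysis was possible because each condition has 1 array, and leaving out a replicate could not be done. Under the alternatives run, no gene reported at least 1.5-fold lower changed direction. Of the values for lists and families 219 stayed within the limit set for a move and 25 moved. The alternative with platform symbols repeats the reported values, so it could not move any of them. With a 1.2-fold threshold 32 of the genes were lower and 4 higher, and with a 2-fold threshold 2 were lower. An offset of 16 gave 2 genes at least 1.5-fold higher (1 SF3 and 1 PRPF) and 1 U2AF gene lower. The brightest probe and the filter at 500, the latter chosen after seeing the data, each gave 1 higher gene, an HNRNP gene, and 1 lower U2AF gene. SRSF had 2 lower genes with median scaling, 75th percentile scaling, deposited values on the log2 scale, the dim filter on both arrays or the brightest probe, and SF3 had 2 with 75th percentile scaling. Of the other splicing genes, 5 were higher as reported, 8 with an offset of 16 or the brightest probe, 3 with median scaling, 2 without background correction or with 75th percentile scaling, and 1 with deposited values. The counts of all genes were 989 higher and 1083 lower as reported, and 1570 and 1653 with an offset of 16. Single genes that moved were HNRNPA1 (-0.89), HNRNPDL (0.59) and HNRNPUL1 (0.02) with the brightest probe or the filter at 500, and HNRNPU (0.33) with the brightest probe, of which HNRNPUL1 and HNRNPU changed sign. Signs of small differences also turned for SF3B1 with the brightest probe or the filter at 500, for SRSF4, SRSF5, SRSF6 and PRPF8 with median scaling, 75th percentile scaling and deposited values, for HNRNPH3 with 75th percentile scaling and for HNRNPKP3 without a filter. The brightest-probe setting and the filter at 500 drop dimmer probes that had the other sign or size; the causes of the other moves were not tested. Probes near the dim level, about 120 in intensity, limit what can be seen for SNRPE and for genes such as PRPF39 and HNRNPCL2. The probes of SNRPN (139 and 150) and PRPF6 (150 and 197) were faint but above that level on both arrays.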
